A study of Sus scrofa with 5 samples.

Results

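Genes for kinesins, cytoplasmic dynein and myosins, the motor proteins that walk along microtubules and actin, were described in nuclei of sensory neurons from pig dorsal root ganglia. Members were the rows of the count table whose symbol was KIF, KLC, DCTN or MYO followed by a digit, or began with DYNC or DYNL. This gave 72 of 30477 rows: 34 kinesin heavy chains, 2 kinesin light chains, 12 dynein chains, 5 subunits of dynactin (the complex that tethers dynein to its cargo) and 19 myosins. The choice used symbols only and no measured value. Of the 72, 70 had at least 1 unique molecular identifier (UMI, the count of 1 captured RNA molecule) and 59 had at least 50. The dynein heavy chain DYNC1H1 and the kinesin light chains KLC1 and KLC2 were not found under their symbols and were not analysed here.

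The ganglia, thoracic and lumbar, were taken from 5 Landrace pigs, all male and untreated, so the series has no comparison arm, and the labels give no age. Each sample was 80 mg of tissue. The isolation protocols differed in the detergent used for lysis and in the way nuclei were freed of debris or enriched with an antibody against NeuN, so that the makeup of the table reflects these steps too. The aim stated for the series is a transcriptomic description of sensory neurons and of nociceptor diversity.

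Nuclei carried 6 barcode endings, read as 6 libraries, and neither a pig nor a protocol could be assigned to any of them. The table was therefore 1 pooled sample: no test could be run over animals, and every 95% interval below covers counting error only. It held 17277376 UMIs in 2189 nuclei, the median nucleus having 4565 (range 501 to 338372), and no barcode sequence was shared between libraries. The libraries stood apart from one another. Their median depth ran from 676 to 12038 UMIs, their median mitochondrial share from 0.0605% in library 6 to 18.5% in library 3, and their share of UMIs from motor genes from 0.833% in library 3 to 1.36% in library 2. Library 2 had 13 nuclei. A total of 30 nuclei above 50000 UMIs held 16.8% of all UMIs.

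Nuclei were clustered without the motor genes, and each cluster was named for whichever of 8 marker genes stood highest in it. The large-fibre groups were those named for NTRK2 (41 nuclei), NTRK3 (164) and PVALB (215), genes known from large myelinated touch and muscle afferents. The C-fibre groups were those named for TRPM8 (149 nuclei), IL31RA (237), GFRA2 (228) and ADCYAP1 (526), genes known from thin unmyelinated fibres that serve cold, itch and pain. The KIT group (185 nuclei) was kept apart and 444 nuclei stayed ungrouped. Each name stands for its marker and no more. The marker levels chose the groups: NTRK2 stood at 3468 counts per 1000000 UMIs (CPM) in its group, NTRK3 at 1242, PVALB at 595, KIT at 550, TRPM8 at 869, IL31RA at 1176, GFRA2 at 421 and ADCYAP1 at 331. The supporting markers were uneven. CALB1 was near 0 in the NTRK2 group as elsewhere, and for 4 groups the summed supporting list was highest elsewhere: the NTRK2 list at 66.2 CPM in its own and 195 CPM in TRPM8 nuclei, the PVALB list at 376 CPM in its own and 456 CPM in IL31RA nuclei, the KIT list at 1843 CPM in its own and 2847 CPM in GFRA2 nuclei, and the TRPM8 list at 891 CPM in its own and 1134 CPM in NTRK2 nuclei. The summed NTRK3, IL31RA, GFRA2 and ADCYAP1 lists were highest in their own groups, though not every gene in them was. Of the NTRK3 list, ESRRG was highest in NTRK3 nuclei at 443 CPM. SLC17A7 stood at 37.0 CPM in NTRK3 and 66.7 CPM in PVALB nuclei, and KCNS1 at 12.7 and 84.5 CPM. TRPV1 was highest in TRPM8 nuclei, TAFA4 in NTRK2, P2RX3 in KIT, HTR1F in NTRK3 and LPAR5 in IL31RA nuclei. Pan-neuronal genes, summed over 6 markers, ran from 2731 CPM in the NTRK2 group to 14468 CPM in the PVALB group. UCHL1 and STMN2 made up most of the PVALB sum, at 6399 and 5292 CPM. SNAP25 and PRPH were also highest in PVALB nuclei, and SYT1 was highest in IL31RA nuclei. RBFOX3, the gene of NeuN, went the other way, lowest in PVALB nuclei at 17.1 CPM and highest in NTRK2 nuclei at 356 CPM. Markers of other cells were present in every group. The Schwann cell list summed to 2889 CPM in NTRK2 nuclei, above their 2731 CPM for neurons, against 1265 to 1665 CPM in the other groups. The PVALB group was the highest for satellite glia, at 2284 CPM against 187 to 628 CPM in the other 7 groups, for fibroblasts, at 297 CPM against 49.7 to 180 CPM, and for immune cells, at 71.6 CPM against 16.6 to 47.1 CPM.

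A sensory neuron keeps its nucleus in the ganglion and its endings in skin, muscle or spinal cord, so most of what its axon needs is carried there. Kinesins move along microtubules mainly away from the cell body, cytoplasmic dynein with dynactin moves cargo such as signalling endosomes back to it, and myosins move along actin or hold membranes to it. Mutations in several of these genes, KIF5A, KIF1A and DCTN1 among them, are known from human neuropathies.

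Motor genes together took a similar share of nuclear RNA on both sides: 10560 CPM in the large-fibre groups (interval 10456 to 10665) and 10182 CPM in the C-fibre groups (10122 to 10241). By group, the summed level was 9444 CPM for NTRK2, 9410 for NTRK3, 12032 for PVALB, 9049 for KIT, 8427 for TRPM8, 10698 for IL31RA, 11445 for GFRA2 and 9404 for ADCYAP1. Within libraries it was 13318 CPM in large-fibre and 12788 CPM in C-fibre nuclei of library 1, 8809 and 7915 CPM in library 3, 8781 and 10525 CPM in library 4, 10180 and 9695 CPM in library 5, and 10026 and 10014 CPM in library 6. The library therefore moved this sum more than the side did. Set against gene length, the highest levels belonged to dynein light chain and dynactin genes and to KIF5A: DYNLL2 had 40.5 CPM per kb of gene, DYNLL1 28.0, DCTN3 13.3, DYNLT3 11.4, KIF5A 10.5 and DCTN2 10.4.

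**Figure D1:**
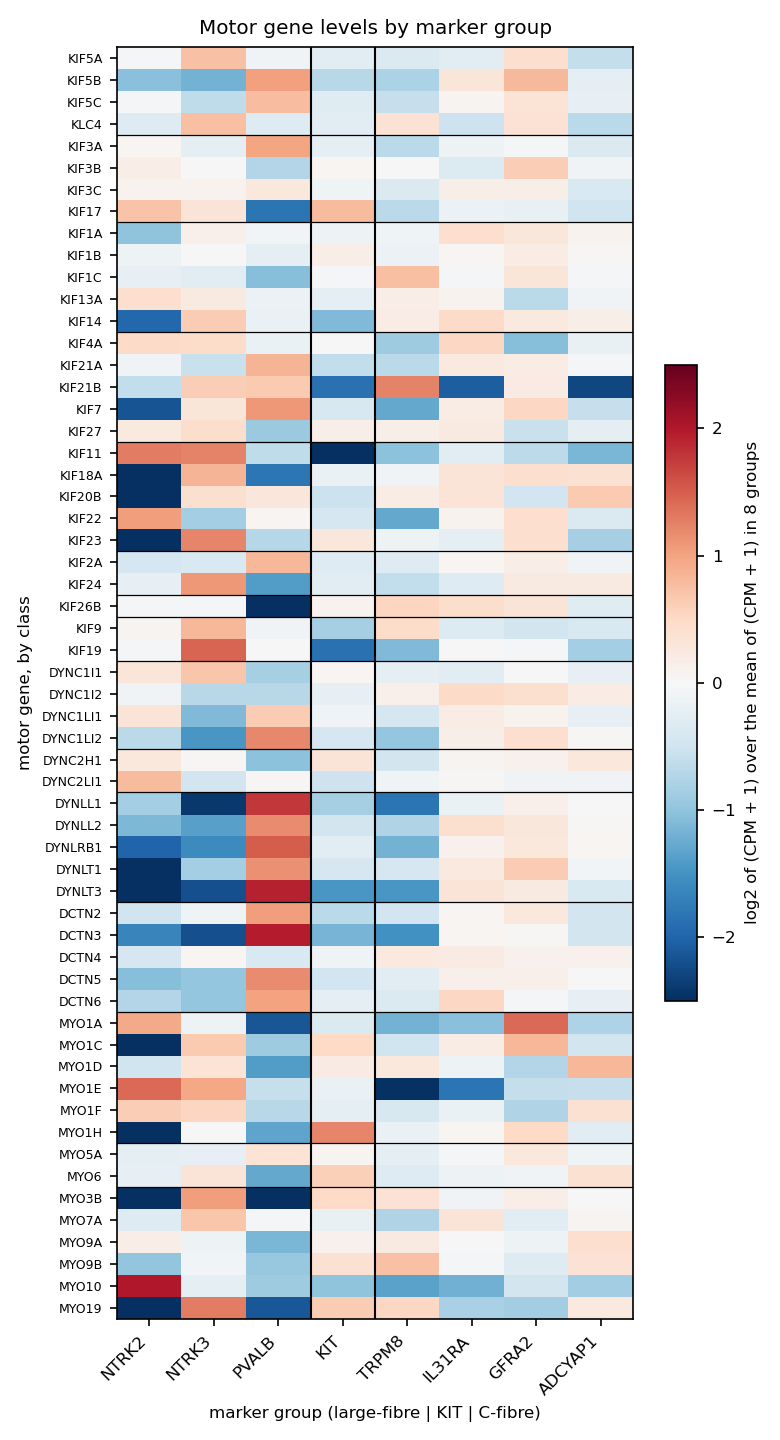
Level of 58 of the 59 motor genes with at least 50 UMIs in the 8 marker groups, as log2 of (CPM + 1) over the gene's mean of (CPM + 1) across groups; columns run from the large-fibre groups through KIT to the C-fibre groups, and black lines separate motor classes. The PVALB column is red for several dynein light chain and dynactin genes and blue for KIF26B, and MYO10 stands out in the NTRK2 column.

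The comparison of large-fibre with C-fibre groups asks whether motor genes differ between kinds of sensory neuron. Of the 58 members with at least 50 UMIs over both sides, 5 were at least 2-fold higher in the large-fibre groups (KIF11, MYO1E, KIF19, KIF21B and DCTN3), or 8.62%, against 10.6% of the 12902 genes compared. In the other direction 1 member was at least 2-fold lower, 1.72% of members against 6.37% of genes. Neither share lies above the background, so the counts are no result about motor genes as a class. The median log2 ratio was 0.16 over these members and 0.10 over all genes. Without library 1 the members' median was -0.07, and without the PVALB group it was -0.05. Library 1 supplied 142 of the 215 PVALB nuclei. With that group left out, the large-fibre side kept 4 NTRK2 and 4 NTRK3 nuclei of library 1, against 211 C-fibre nuclei. Values without the PVALB group, here and below, therefore compare sides that also differ in library.

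**Figure D2:**
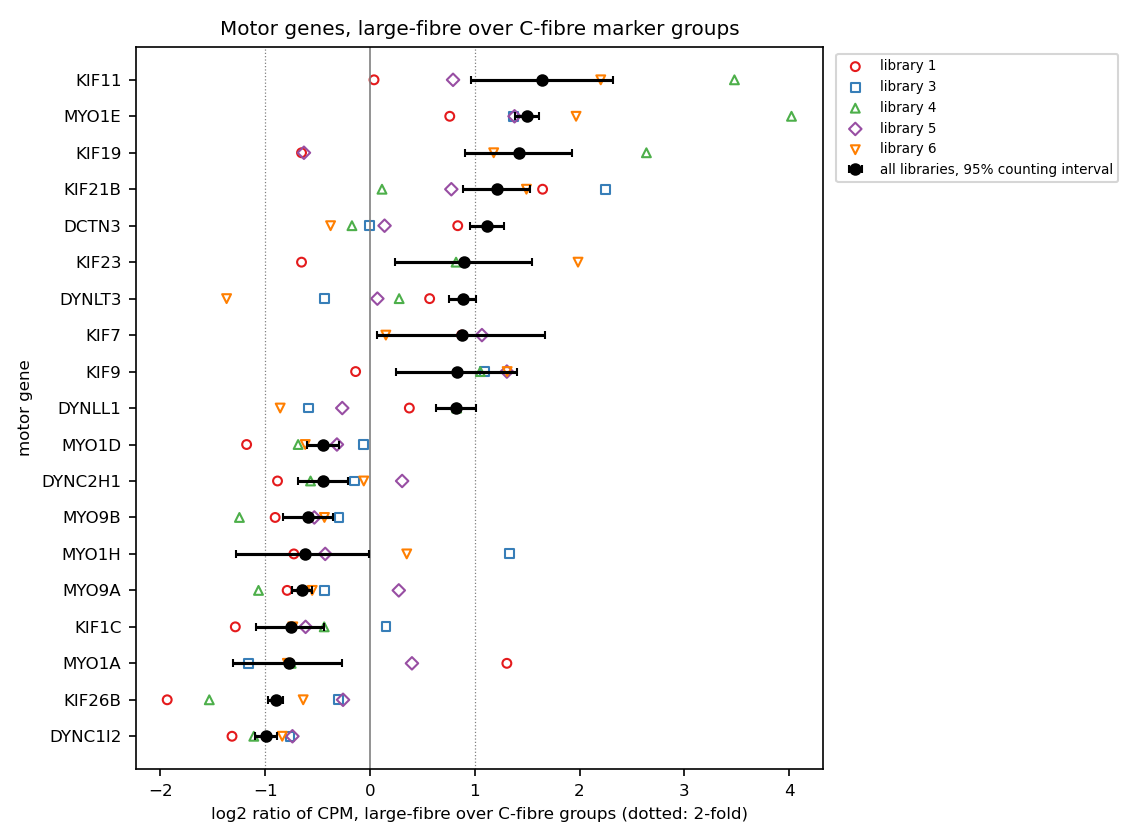
Log2 ratio of CPM in the large-fibre over the C-fibre groups for the 10 members with the largest and all but 1 of the 10 with the smallest ratio whose counting interval leaves out equality. Black points are pooled nuclei with 95% counting intervals, and open symbols are single libraries with at least 10 nuclei a side and 10 UMIs; MYO1E and KIF21B lie right of 0 in all 5 libraries, DYNC1I2, KIF26B, MYO9B and MYO1D left of 0 in all 5.

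Across the 46 members with a value in 5 libraries, 11 kept the direction of their pooled ratio in all 5, or 23.9%, against 23.2% of the 9607 genes with such values, a share near the background. Higher in large-fibre nuclei throughout were MYO1E, KIF21B, KIF3A, DCTN2, KIF5A, KLC4 and MYO7A, and lower throughout were DYNC1I2, KIF26B, MYO9B and MYO1D.

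Conventional kinesin, kinesin-1, carries vesicles, mitochondria and neurofilaments down the axon, and its heavy chain comes from KIF5A, KIF5B or KIF5C. KIF5A (chromosome 5, 22813617 to 22851976), the form restricted to neurons, was higher in large-fibre nuclei in every library. It stood at 436 CPM in large-fibre and 315 CPM in C-fibre nuclei of library 1, 364 and 168 CPM in library 3, 544 and 273 CPM in library 4, 823 and 516 CPM in library 5, and 769 and 414 CPM in library 6. Pooled, the levels were 554 and 373 CPM, 1.48-fold (1.41 to 1.57). The NTRK3 group was highest at 695 CPM, and GFRA2, a C-fibre group, came next at 562 CPM, ahead of NTRK2 at 406, PVALB at 394, KIT at 347, IL31RA at 347, TRPM8 at 326 and ADCYAP1 at 276 CPM. The counting intervals of GFRA2 and NTRK2 overlapped, as did those of each following pair down to TRPM8. KIF5A shares part of its locus with DCTN2, which ends in it at 22814358, and reads from the shared stretch cannot be told apart, since no source used here says whether counting used strand.

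KIF5B, the form found in most tissues, stood at 237 CPM in large-fibre and 239 CPM in C-fibre groups, and KIF5C, another neuronal form, at 847 and 754 CPM. The near equality of KIF5B joined unlike groups: PVALB nuclei had 424 CPM, NTRK2 nuclei 99.3 and NTRK3 nuclei 91.2 CPM, against 119 to 362 CPM in the C-fibre groups. Without the PVALB group KIF5B stood at 91.7 CPM in large-fibre and 239 CPM in C-fibre groups, 0.383 times (0.329 to 0.443), and KIF5C at 498 and 754 CPM. In library 5, with 1 PVALB nucleus among 30 large-fibre nuclei, KIF5B stood at 124 and 153 CPM and KIF5C at 672 and 537 CPM. In library 6, with 4 of 50, KIF5B stood at 97.1 and 130 CPM and KIF5C at 528 and 561 CPM. Over all nuclei of the 2 sides, KIF5A made up 33.8% of the UMIs of the 3 genes in large-fibre groups (32.6 to 35.0%) and 27.3% in C-fibre groups (26.6 to 28.0%). The share differed within the large-fibre side, at 54.7% in NTRK3, 32.5% in NTRK2 and 18.6% in PVALB nuclei, the last below every C-fibre group (24.8 to 34.2%). Library by library it was 17.2% in large-fibre and 13.4% in C-fibre nuclei of library 1, 35.3 and 18.4% in library 3, 49.2 and 30.1% in library 4, 50.8 and 42.8% in library 5, and 55.2 and 37.5% in library 6. Both sides were lowest in library 1, which held most PVALB nuclei. There 142 of the 150 large-fibre nuclei were PVALB, and the large-fibre share was above the C-fibre share, unlike the pooled rank of the PVALB group. The large-fibre minus C-fibre difference was 6.504 percentage points with all libraries, 16.8 without library 1 and 3.24 without library 4. The light chain KLC4, named after its values were seen, stood at 53.1 CPM in large-fibre and 36.8 CPM in C-fibre groups, and KLC3 had 1 UMI in the table.

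**Figure D3:**
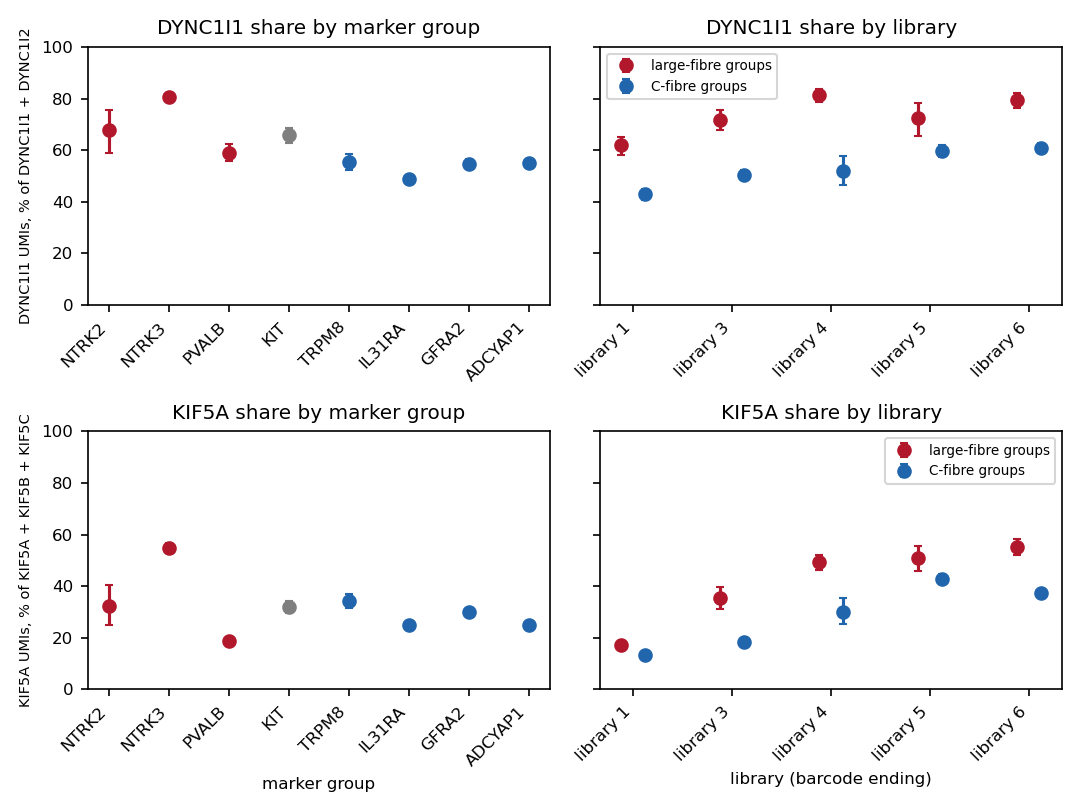
Share of DYNC1I1 among DYNC1I1 and DYNC1I2 UMIs (top) and of KIF5A among KIF5A, KIF5B and KIF5C UMIs (bottom), by marker group (left) and by library for large-fibre (red) and C-fibre (blue) groups (right); bars are exact 95% counting intervals and KIT is grey. In each of the 5 libraries both shares are higher in the large-fibre nuclei.

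The dynein intermediate chain links the dynein motor to dynactin and to cargo, and 2 genes code for it: DYNC1I1 (chromosome 9, 75414663 to 75760527), known mainly from neurons, and DYNC1I2 (chromosome 15, 77803601 to 77859559), found in most tissues. DYNC1I2 was lower in large-fibre nuclei of all 5 libraries, at 251 CPM in large-fibre and 625 CPM in C-fibre nuclei of library 1, 298 and 507 CPM in library 3, 189 and 407 CPM in library 4, 212 and 358 CPM in library 5, and 199 and 357 CPM in library 6. No large-fibre value reached the lowest C-fibre value. Pooled, the levels were 227 and 451 CPM, a ratio of 0.503 (0.467 to 0.541).

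DYNC1I1 leaned the other way, at 657 CPM in large-fibre and 511 CPM in C-fibre groups, with a higher value on the large-fibre side in 4 of 5 libraries. The exception was library 1, with 406 CPM in large-fibre and 469 CPM in C-fibre nuclei. DYNC1I1 thus made up 74.3% of intermediate-chain UMIs in large-fibre groups (72.8 to 75.8%) and 53.1% in C-fibre groups (52.1 to 54.0%). By library the share was 61.8% in large-fibre and 42.9% in C-fibre nuclei of library 1, 71.7 and 50.3% in library 3, 81.4 and 52.0% in library 4, 72.4 and 59.6% in library 5, and 79.5 and 61.0% in library 6. Within each library the intervals of the large-fibre and C-fibre shares do not overlap. By group, the share was 67.7% in NTRK2, 80.6% in NTRK3, 59.1% in PVALB and 65.8% in KIT nuclei, against 55.4% in TRPM8, 48.8% in IL31RA, 54.6% in GFRA2 and 54.9% in ADCYAP1 nuclei. The PVALB share was the lowest of the large-fibre side, and its interval (55.7 to 62.3%) overlapped those of TRPM8, GFRA2 and ADCYAP1. These pooled groups differ in library. In library 1, where 142 of 150 large-fibre nuclei were PVALB, the share was 61.8%, against 42.9% in C-fibre nuclei of the same library.

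The light intermediate chains bind cargo adaptors. DYNC1LI1 stood at 96.3 CPM in large-fibre and 97.6 CPM in C-fibre groups, and DYNC1LI2 at 178 and 156 CPM. By group DYNC1LI2 stood at 336 CPM in PVALB, 91.1 in NTRK2 and 52.7 CPM in NTRK3 nuclei, against 74.5 to 195 CPM in the C-fibre groups. Without the PVALB group both were lower in the pooled large-fibre nuclei, DYNC1LI2 at 54.9 against 156 CPM (0.352 times, 0.289 to 0.425) and DYNC1LI1 at 50.1 against 97.6 CPM (0.513 times, 0.416 to 0.628). In library 5, with 1 PVALB nucleus among 30 large-fibre nuclei, DYNC1LI2 stood at 73.4 and 74.2 CPM and DYNC1LI1 at 58.0 and 61.1 CPM. In library 6, with 4 of 50, DYNC1LI2 stood at 44.8 and 99.8 CPM and DYNC1LI1 at 47.3 and 74.1 CPM. Dynein 2, the motor of transport inside cilia, was represented by its heavy chain DYNC2H1, at 48.8 CPM in large-fibre and 66.6 CPM in C-fibre groups (0.733 times, 0.619 to 0.863, lower in 4 of 5 libraries), and by DYNC2LI1 at 16.4 and 17.8 CPM. Without the PVALB group DYNC2H1 stood at 63.5 and 66.6 CPM (0.953 times, 0.786 to 1.15).

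Several dynein light chain and dynactin genes were highest in the PVALB group. Of the 59 members with at least 50 UMIs over the grouped nuclei, 7 were at least 2-fold higher in 1 group than in every other, or 11.9%, against 17.9% of 13142 genes, and 5 of the 7 were highest in PVALB nuclei: DCTN3, DCTN5, DYNLL1, DYNLRB1 and DYNLT3. Those 5 are 8.47% of the members, against 9.66% of genes, so the count is near the background for that group. DYNLL1, DYNLRB1 and DYNLT3 are small subunits at the base of the dynein motor, DYNLL1 also binding many other proteins, and DCTN3 and DCTN5 are structural dynactin subunits. DCTN3 stood at 315 CPM in the PVALB group and 83.4 CPM in the next (IL31RA), DCTN5 at 82.6 and 39.4 CPM (GFRA2), DYNLL1 at 209 and 66.5 CPM (GFRA2), DYNLRB1 at 388 and 163 CPM (GFRA2), and DYNLT3 at 465 and 153 CPM (IL31RA). The NTRK3 group lay at the other end, with 16.7 CPM of DCTN3 and 10.6 CPM of DYNLL1. The large-fibre side thus joined the highest and the lowest groups.

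The library moved these genes more than the side did. In library 1, DCTN3 stood at 407 CPM in large-fibre and 228 CPM in C-fibre nuclei, and in libraries 3 to 6 it lay between 21.2 and 34.8 CPM in large-fibre and between 28.1 and 37.0 CPM in C-fibre nuclei. Without library 1 the pooled log2 ratio of DCTN3 was -0.33, against 1.12 with it, that of DYNLT3 was -0.37 against 0.88, and that of DYNLL1 was -0.05 against 0.82. Within libraries the PVALB group was set against the other groups with at least 10 nuclei. DCTN3 stood at 415 CPM in PVALB nuclei against at most 268 CPM in library 1, at 91.9 against at most 44.97 CPM in library 3, and at 86.6 CPM against 7.65 CPM in NTRK3 nuclei in library 4. The lead of PVALB over the next group, without library 1, was 0.95 (log2) for DCTN3, 0.66 for DCTN5 and 0.64 for DYNLRB1, against 1.92, 1.07 and 1.25, and without library 3 that of DYNLL1 was 0.71, against 1.65. DCTN5, named after its values were seen, DYNLL1 and DYNLT3 were likewise highest in PVALB nuclei in these 3 libraries, by less than in the pooled nuclei in libraries 1 and 3. DYNLL1 stood at 254 CPM in PVALB and 227 CPM in ADCYAP1 nuclei of library 1, and at 72.2 CPM in PVALB and 67.4 CPM in GFRA2 nuclei of library 3, from 11 and 36 UMIs. DYNLT3 stood at 597 CPM in PVALB and 448 CPM in GFRA2 nuclei of library 1, and at 125 and 95.6 CPM in library 3. Library 4 had only NTRK3 nuclei for comparison. DYNLRB1 was so in libraries 3 and 4, and in library 1 it stood at 488 CPM in PVALB and 521 CPM in GFRA2 nuclei.

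Other signals moved with this pattern. The satellite glia list, of which all 6 genes were detected in PVALB nuclei, reached 2284 CPM there, 2151 CPM of it from APOE. CDH19 stood at 76.5 CPM in PVALB nuclei and at most 49.7 CPM elsewhere, FABP7 and GJA1 each at 14.1 and at most 8.28 CPM, and KCNJ10 at 6.12 and at most 3.53 CPM, while SOX10 was highest in NTRK2 nuclei. The list stood at 2167 CPM in PVALB nuclei and between 1540 and 2107 CPM in the other groups of library 1, at 453 CPM and between 197 and 389 CPM in library 3, and at 3729 CPM in PVALB and 119 CPM in NTRK3 nuclei of library 4. PVALB nuclei were thus highest for the list in all 3 libraries, by little in library 1. The fibroblast and immune lists, given above, were also highest there. The median mitochondrial share was 6.08% in PVALB nuclei and between 0.104 and 3.03% in the other groups. Of the neuronal genes, UCHL1, STMN2, SNAP25 and PRPH were also highest in PVALB nuclei, while RBFOX3 was lowest there. The part of these signals in the result was not tested.

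**Figure D4:**
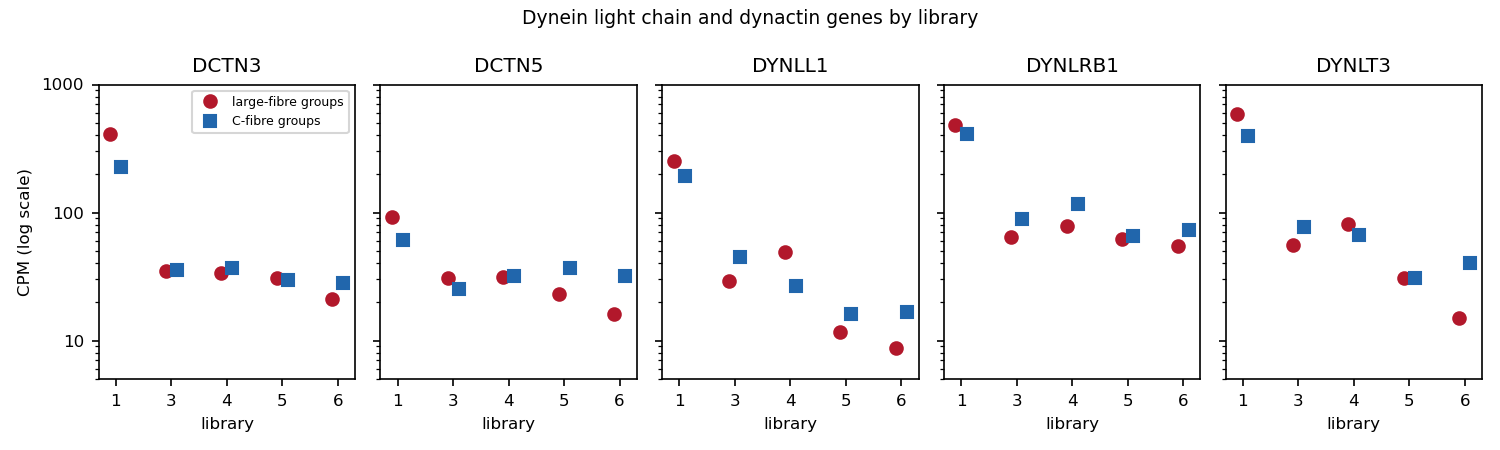
Level of 3 dynein light chain and 2 dynactin genes by library, in CPM on a log axis, for large-fibre (red circles) and C-fibre (blue squares) groups. Library 1 is the highest for all 5 genes on both sides, and in libraries 3 to 6 the highest value is 116 CPM.

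DYNLL2, a light chain close to DYNLL1, stood at 355 CPM in large-fibre and 324 CPM in C-fibre groups, but at 664 CPM in PVALB, 132 in NTRK2 and 112 CPM in NTRK3 nuclei, against 172 to 386 CPM in the C-fibre groups. Without the PVALB group it stood at 114 CPM in large-fibre and 324 CPM in C-fibre groups, 0.351 times (0.306 to 0.400). In library 5, with 1 PVALB nucleus among 30 large-fibre nuclei, DYNLL2 stood at 313 and 303 CPM. In library 6, with 4 of 50, it stood at 166 and 431 CPM. DCTN2, the dynamitin subunit that joins the dynactin arm to its base, was higher in large-fibre nuclei of all 5 libraries, at 217 and 143 CPM (1.52-fold, 1.39 to 1.65), with the overlap with KIF5A given above. Its levels without the PVALB group were 140 and 143 CPM. Within library 5 DCTN2 stood at 185 and 139 CPM, and within library 6 at 166 and 120 CPM. DCTN4 stood at 161 and 198 CPM and DCTN6 at 48.8 and 43.8 CPM, both subunits of the dynactin pointed end. DYNLT1 stood at 20.9 and 19.0 CPM. With PVALB nuclei left out, DCTN6 stood at 21.0 CPM in large-fibre and 43.8 CPM in C-fibre groups and DYNLT1 at 8.12 and 19.0 CPM, both at least 2-fold lower. Within library 5 DCTN6 stood at 30.9 and 22.3 CPM, and within library 6 at 19.9 and 28.7 CPM. DYNLT1 had 1 large-fibre UMI in library 5 and 5 in library 6.

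Kinesin-2, the heterotrimeric motor that carries cilia components and axonal vesicles, is built on KIF3A (chromosome 2, 134932339 to 135069408) with KIF3B or KIF3C. KIF3A was higher in large-fibre nuclei of each library, at 729 CPM in large-fibre and 419 CPM in C-fibre nuclei of library 1, 480 and 245 CPM in library 3, 312 and 228 CPM in library 4, 305 and 224 CPM in library 5, and 258 and 243 CPM in library 6. The distance was widest in libraries 1 and 3 and nearly gone in library 6. Pooled, the ratio was 1.58 (1.49 to 1.67). In the pooled nuclei without the PVALB group, KIF3A stood at 287 CPM on both sides, a ratio of 1.00 (0.915 to 1.09). Leaving that group out also removes most library 1 nuclei from the large-fibre side only. Library 1 was the highest of the 5 on both sides. The higher large-fibre value of library 5 came with 1 PVALB nucleus among 30, and that of library 6 with 4 among 50. PVALB nuclei carried most, at 665 CPM, 2.35-fold the 284 CPM of NTRK3 nuclei (2.12 to 2.60), a pair named after its values were seen and ordered the same way in libraries 3 and 4, where both groups had 10 nuclei. Without library 1 the log2 ratio of this pair was 0.85, against 1.23. KIF3A lies across RAD50, IL13 and IL4 in the annotation, so its count is uncertain to that extent. Its partner KIF3B stood at 72.9 CPM in large-fibre and 92.9 CPM in C-fibre groups, KIF3C at 281 and 238 CPM, and KIF17, a kinesin of dendrites and cilia, at 3.75 and 3.53 CPM.

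Kinesin-3 motors are the fast carriers of synaptic vesicle precursors and dense-core vesicles. The 3 with most UMIs stood close together on both sides: KIF1A at 422 CPM in large-fibre and 488 CPM in C-fibre groups, KIF1B at 1005 and 1117 CPM, and KIF13A, which moves recycling endosomes, at 124 and 107 CPM. KIF1C was lower, at 25.5 CPM in large-fibre and 43.0 CPM in C-fibre groups (0.592 times, 0.470 to 0.739), in 4 of 5 libraries. KIF14, better known from cell division, stood at 3.75 and 3.71 CPM.

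Kinesin-4 includes KIF21A, a regulator of microtubule growth in axons, and its relative KIF21B (chromosome 10, 23444997 to 23491081). KIF21A stood at 1232 CPM in large-fibre and 1080 CPM in C-fibre groups, and at 727 and 1080 CPM without the PVALB group. Within library 5 it stood at 699 and 743 CPM, and within library 6 at 745 and 842 CPM. KIF21B was 2.31-fold higher in large-fibre groups (1.85 to 2.88), at 24.2 CPM in large-fibre and 7.57 CPM in C-fibre nuclei of library 1, 60.003 and 12.6 CPM in library 3, 46.8 and 42.3 CPM in library 4, 42.5 and 25.7 CPM in library 5, and 38.6 and 13.8 CPM in library 6. The large-fibre value exceeded the C-fibre value in every library, by little in library 4. Without library 3 the log2 ratio was 0.98, just short of 2-fold, against 1.21.

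The groups of KIF21B cut across the 2 sides. TRPM8 nuclei had most, at 62.5 CPM (49.0 to 78.6), ahead of PVALB at 41.01, NTRK3 at 40.0, GFRA2 at 29.6 and NTRK2 at 16.6 CPM, while KIT, IL31RA and ADCYAP1 nuclei had 6.38, 5.37 and 4.54 CPM. The NTRK2 value came from 2 UMIs, so its rank is uncertain. TRPM8 nuclei stood 13.7-fold above ADCYAP1 nuclei (8.12 to 24.5) and GFRA2 nuclei 6.52-fold above them (3.88 to 11.5), with the same direction in all 3 and all 4 libraries that gave a value. Both pairs were named after their values were seen. The other kinesin-4 members were sparse, with KIF7, a ciliary regulator of Hedgehog signalling, at 6.17 CPM in large-fibre and 3.34 CPM in C-fibre groups, KIF27 at 20.4 and 19.1 CPM and the mitotic KIF4A at 6.70 and 4.97 CPM.

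**Figure D5:**
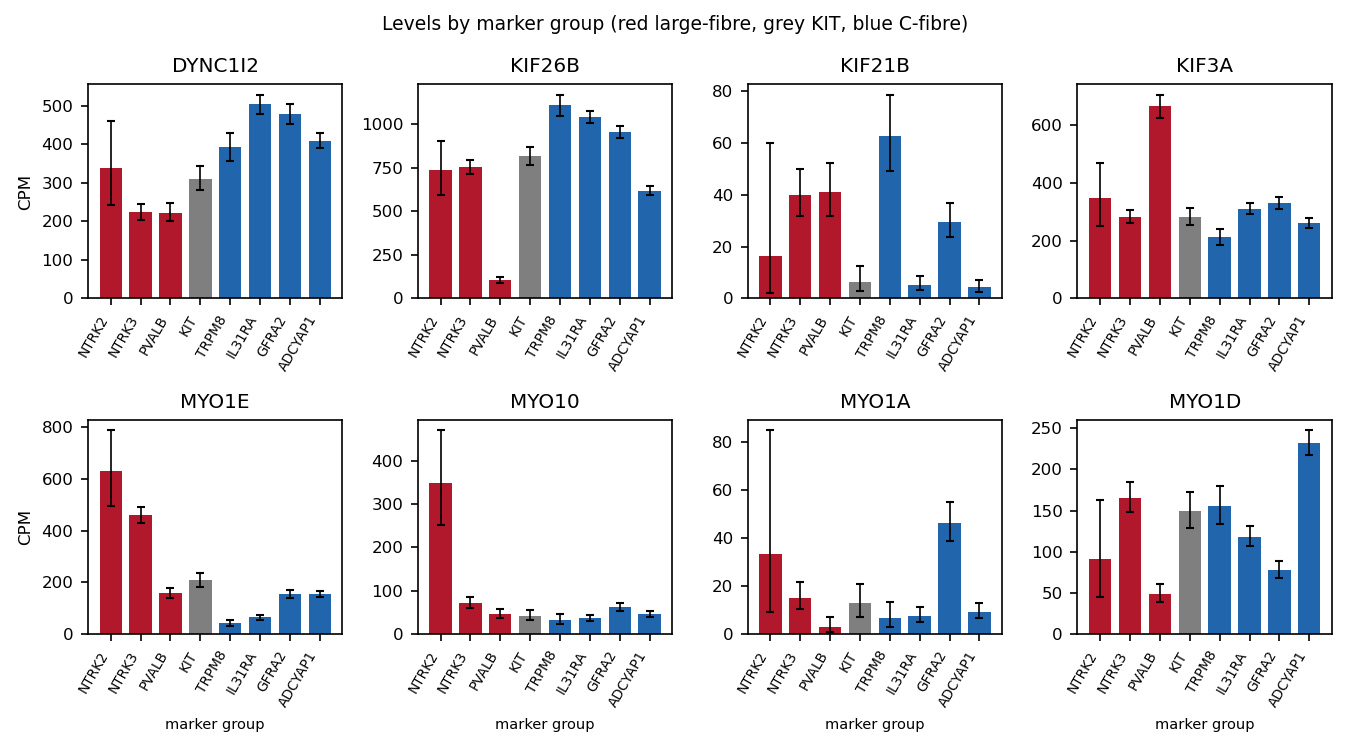
Level of 8 motor genes in the 8 marker groups, in CPM with exact 95% counting intervals (large-fibre groups red, KIT grey, C-fibre groups blue); the vertical scale differs between panels. DYNC1I2 is lower in NTRK3 and PVALB than in any blue group, KIF26B is low in PVALB alone among the 8, and KIF21B, MYO1A and MYO1D differ among the blue groups.

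KIF26B (chromosome 10, 17708365 to 18220052), a kinesin-11 that binds microtubules without walking along them, was lower in large-fibre nuclei of all 5 libraries. It stood at 128 CPM in large-fibre and 490 CPM in C-fibre nuclei of library 1, 432 and 534 CPM in library 3, 553 and 1601 CPM in library 4, 997 and 1193 CPM in library 5, and 717 and 1116 CPM in library 6. Pooled, the levels were 469 and 875 CPM, a ratio of 0.536 (0.509 to 0.564). By group PVALB nuclei were lowest, at 106 CPM, against 737 CPM in NTRK2, 753 in NTRK3, 817 in KIT, 1107 in TRPM8, 1042 in IL31RA, 955 in GFRA2 and 618 in ADCYAP1 nuclei. The PVALB level was 0.141 times that of NTRK3 nuclei (0.1201 to 0.166), a pair named after its values were seen. In libraries 3 and 4 it stood at 45.9 and 52.6 CPM in PVALB nuclei, against 511 and 805 CPM in NTRK3 nuclei, so the low level was present outside library 1. Without the PVALB group the log2 ratio of the 2 sides was -0.22, against -0.90 with it. Within libraries 5 and 6, which had 1 and 4 PVALB nuclei, it was -0.26 and -0.64.

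Kinesins of cell division were rare, as were marks of dividing cells: TOP2A and CENPF reached at most 6.12 and 7.96 CPM in any group. KIF11, the motor that pushes spindle poles apart and also restrains axon growth in rodent neurons, was 3.12-fold higher in large-fibre groups (1.95 to 5.00), from 40 UMIs there and 38 in C-fibre groups. Of those 40, 12 came from 1 nucleus. It was higher in all 4 libraries with a value (log2 0.04 to 3.48) and stood at 16.6 CPM in NTRK2, 16.2 in NTRK3 and 3.67 in PVALB nuclei. The NTRK2 value came from 2 UMIs. KIF23, a motor of the dividing cell's midzone, stood at 9.12 CPM in large-fibre and 4.88 CPM in C-fibre groups, from 34 and 54 UMIs, and was higher in 2 of 3 libraries. KIF18A (5.10 and 6.06 CPM) and KIF20B (15.02 and 14.9 CPM) differed little for their counts. KIF22 had 58 UMIs in the table and 47 over both sides, KIF15 had 49, KIF2C 25, KIF18B 23, KIF20A 11 and KIF2B none, too few for a ratio.

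The microtubule-depolymerising kinesin-13 KIF2A stood at 175 CPM in large-fibre and 144 CPM in C-fibre groups, and KIF24, which acts at centrioles, at 13.1 and 9.85 CPM. KIF9 and KIF19, known from cilia, stood at 11.3 and 6.33 CPM and at 17.2 and 6.42 CPM. The KIF19 ratio of 2.67 (1.88 to 3.80) was seen in 2 of 4 libraries: 49 of its 64 large-fibre UMIs came from NTRK3 nuclei, and 16 of the 64 from 1 nucleus. Without nuclei above 50000 UMIs its log2 ratio was 0.47, and without library 4 it was 0.44, against 1.42. KIF12 had 5 UMIs and KIF6 none.

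Class I myosins link membranes to actin, and several of their genes differed among the C-fibre groups. MYO1E (chromosome 1, 112677545 to 112902005), a long-tailed class I myosin of endocytosis and adhesion, was the member with most UMIs among those past 2-fold. It stood at 159 CPM in large-fibre and 93.8 CPM in C-fibre nuclei of library 1, 261 and 101 CPM in library 3, 365 and 21.2 CPM in library 4, 367 and 142 CPM in library 5, and 575 and 147 CPM in library 6. Every large-fibre value was above every C-fibre value. Pooled, the levels were 332 and 117 CPM, 2.83-fold (2.62 to 3.06).

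By group MYO1E ran from 629 CPM in NTRK2 nuclei and 458 CPM in NTRK3 nuclei through 208 CPM in KIT, 157 in PVALB, 156 in ADCYAP1 and 155 in GFRA2 to 64.8 in IL31RA and 41.1 CPM in TRPM8 nuclei. The intervals of PVALB, ADCYAP1 and GFRA2 overlapped. ADCYAP1 nuclei stood 3.79-fold above TRPM8 nuclei (2.82 to 5.19), with the same direction in all 3 libraries with a value, and 2.40-fold above IL31RA nuclei (2.05 to 2.83), in all 4. Both pairs were named after their values were seen, and the IL31RA pair reversed with nuclei grouped by their own marker UMIs (log2 -0.28, against 1.26). MYO1E overlaps FAM81A in the annotation.

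MYO1D, another class I myosin, differed among the C-fibre groups too. ADCYAP1 nuclei were highest at 232 CPM, and GFRA2 nuclei had 78.1 CPM, a ratio of 2.97 (2.56 to 3.46), in the same direction in all 4 libraries. On the large-fibre side NTRK3 nuclei had 166, NTRK2 nuclei 91.1 and PVALB nuclei 49.0 CPM, and the 2 sides stood at 112 and 153 CPM. Without library 1 the log2 ratio of the 2 sides was -0.19, without library 6 it was -0.19, and with all libraries it was -0.45. Without the PVALB group MYO1D stood at 161 CPM in large-fibre and 153 CPM in C-fibre groups, a log2 ratio of 0.08. Within libraries 5 and 6, which had 1 and 4 PVALB nuclei, the log2 ratio was -0.32 and -0.62. MYO1A, best known from the intestinal brush border, was highest in GFRA2 nuclei at 46.3 CPM against 9.34 CPM in ADCYAP1 nuclei (4.95-fold, 3.41 to 7.35). The MYO1D and MYO1A pairs were named after their values were seen. Over the sides MYO1A stood at 10.5 and 17.8 CPM, MYO1H at 7.24 and 11.12 CPM, MYO1C at 8.31 and 8.59 CPM and MYO1F at 11.5 and 9.85 CPM, while MYO1G had 46 UMIs in the table. Without the PVALB group MYO1A stood at 16.2 and 17.8 CPM and MYO1H at 10.02 and 11.12 CPM.

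MYO5A and MYO6 walk along actin in opposite directions, MYO5A carrying vesicles and endoplasmic reticulum outwards and MYO6 carrying endocytic vesicles inwards. MYO5A stood at 572 CPM in large-fibre and 549 CPM in C-fibre groups, a ratio of 1.04 (0.991 to 1.09). MYO6 stood at 149 and 180 CPM, with PVALB nuclei lowest at 69.8 CPM and KIT nuclei highest at 259 CPM. MYO5C had 18 UMIs.

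MYO10, which moves to the tips of filopodia, was at 348 CPM in NTRK2 nuclei (251 to 470), from 42 UMIs, and at 72.4 CPM in NTRK3 nuclei, the next group, 4.80-fold lower. In library 3, which held 35 of the 41 NTRK2 nuclei, its level was 396 CPM against at most 72.3 CPM in the other groups. With libraries clustered each alone the NTRK2 group grew to 188 nuclei and its log2 lead over the next group was 0.67, against 2.26; without library 3 the lead was 1.40. The class IX myosins were lower in large-fibre groups: MYO9A at 281 against 441 CPM (0.637 times, 0.595 to 0.681, 4 of 5 libraries) and MYO9B at 49.1 against 73.9 CPM (0.664 times, 0.563 to 0.781, 5 of 5). PVALB nuclei were lowest for MYO9A at 176 CPM and ADCYAP1 nuclei highest at 527 CPM. Without the PVALB group MYO9A stood at 363 against 441 CPM (0.822 times, 0.761 to 0.888). MYO9B then stood at 61.1 against 73.9 CPM (0.827 times, 0.681 to 0.998). MYO7A, a myosin of sensory hair bundles, stood at 27.6 and 21.0 CPM, MYO3B at 11.3 and 10.3 CPM, and MYO19, which moves mitochondria and was named after its values were seen, at 19.8 and 12.2 CPM. MYO18B had 47 UMIs, MYO7B 46 and the dynein light chain DYNLRB2 43.

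Gene length was set beside the ratios of the 57 members with a RefSeq length. The 29 shorter genes had a median log2 ratio of 0.32 and the 28 longer ones 0.03, and across these genes Pearson's r between log2 ratio and log length was -0.33 and Spearman's rho -0.34. The genes share libraries and are no independent replicates, so this is a description.

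Motor partners and tracks were read from lists of other genes. Of 49 partner and adaptor genes with enough UMIs, MYRIP, which links RAB27 vesicles to myosin, was higher at 178 CPM in large-fibre and 59.1 CPM in C-fibre groups (3.02-fold, 2.70 to 3.37), and the vesicle GTPase RAB3A at 189 and 94.0 CPM (2.01-fold, 1.83 to 2.21). MYRIP was higher in 5 of 5 libraries and RAB3A in 4, its log2 ratio in library 6 being -1.07. These 2 of 49 are 4.08%, against 10.6% of genes. PPFIA2, RAB27B and GRIP1, a KIF5 adaptor for glutamate receptors, were at least 2-fold lower, 6.12% against 6.37% of genes, GRIP1 at 493 and 1145 CPM (0.430 times, 0.410 to 0.452). The other 44 lay between, with a list median of 0.23 (log2), against 0.10 over all genes.

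Of 37 genes of the microtubule track, 5 were at least 2-fold higher, or 13.5% against 10.6% of genes, and 1 lower, or 2.70% against 6.37%, 31 lying between, with a median of 0.14. MAP2, a microtubule-associated protein that steers motors at the axon's entry, stood at 646 CPM in large-fibre and 111 CPM in C-fibre groups, 5.81-fold (5.42 to 6.23) and in 5 of 5 libraries. The end-binding protein MAPRE3 stood at 201 and 84.6 CPM (2.38-fold, 2.16 to 2.62), and DCLK3 and VASH2 completed the 4 highest. On the other side were VASH1 at 7.78 and 19.3 CPM, DCLK1 at 374 and 695 CPM (0.537 times, 0.507 to 0.569), MAPT, which codes for tau, at 492 and 891 CPM (0.553 times, 0.526 to 0.581), and CLIP1 at 182 and 301 CPM, each lower in 5 of 5 libraries.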

How the data were processed

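The authors deposited 1 table of raw UMI counts, 30477 genes by 2189 nuclei, with no normalization. Cell Ranger 6.0.1, Seurat and the build Sscrofa11.1 are named per the submitters' processing notes, without roles; filters on nuclei and the counting of introns and strand are not given in the sources used here. No test over pigs, as first planned, could be made, since columns could not be tied to pigs.

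Nuclei with at least 200 genes (all of them) were clustered in scanpy 1.11.5: counts scaled to 10000 per nucleus, log-transformed, 2000 variable genes without motor, partner, track and mitochondrial genes, 30 principal components, 15 neighbours, Leiden at resolution 1.0, giving 23 clusters. Libraries were not integrated. A cluster took the marker with the highest log2 ratio of (CPM + 10) against the rest of its libraries, if at least 1 and from at least 10 UMIs, unless its median depth was under 0.333 of the median of all nuclei. No doublet caller was run.

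UMIs were summed per group. CPM carry exact Poisson intervals, ratios exact conditional binomial intervals and shares Clopper-Pearson intervals, at 95%, for counting error only. Ratios needed 50 UMIs, and within libraries 10 nuclei a side and 10 UMIs, with 0.5 counts added. A count of 0 was set to 3 counts over the group. Named genes were the 10 largest ratios each way with an interval leaving out 1, members 2-fold above every other group, up to 3 members per motor class by UMIs, and 4 partners and tracks each way. Values of 1 member are not reported here. Members and lists were chosen with earlier results of these data known. Positions and lengths are RefSeq's for Sscrofa11.1, which held 71 of the 72 members (not KIF17).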

Additional observations from a re-analysis of the deposited data

Results flagged for a closer look

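Rows that carry an identifier in place of a symbol lie outside the comparisons above. A table of gene names pairs 6 of them with motor genes, and MYO5B, a class V myosin of recycling endosomes, was the only one past 2-fold. It stood at 123 CPM in large-fibre and 24.1 CPM in C-fibre groups, a fold of 5.10 (4.38 to 5.95), higher in all 5 libraries (log2 0.98 to 3.49). By group it stood at 530 CPM in NTRK2, 180 in NTRK3, 24.5 in PVALB and 171 in KIT nuclei, against 48.8 in TRPM8, 19.0 in IL31RA, 20.6 in GFRA2 and 23.5 CPM in ADCYAP1 nuclei.

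A cluster of 295 nuclei led by TRPM8 was left out of the groups for its depth, a median of 1437 UMIs, and 292 of its nuclei came from library 1. Motor genes summed to 11218 CPM there (10936 to 11505), against 8427 CPM in the TRPM8 group. It carried 262 CPM of DCTN3, 381 CPM of DYNLT3 and 9.34 CPM of KIF21B, against 27.4, 43.7 and 62.5 CPM in the TRPM8 group. The TRPM8 group had only 5 nuclei from library 1, so library and depth cannot be told apart here. C-fibre nuclei of library 1 carried 228 CPM of DCTN3, 395 CPM of DYNLT3 and 7.57 CPM of KIF21B. Motor genes summed to 12788 CPM in them.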

How the results depend on the processing

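No paired analysis was possible because columns could not be tied to pigs, and for the same reason the count tests over pigs, leaving out a pig and the pig block were not run. The members' median log2 ratio (0.16) was 0.018 with nuclei grouped by their own marker UMIs, -0.00093 as a mean within libraries, -0.070 without library 1 and -0.055 without the PVALB group. The 5 higher members of 58 became 3 of 59 with KIT joined, against 8.16% of all genes. As a mean within libraries they became 3 of 58, against 8.36%. The 1 lower member became 4 by mean CPM over nuclei, 3 with nuclei thinned to 1000 UMIs, 3 without nuclei above 50000 UMIs, 2 with shallow clusters kept, 0 without library 1, 2 without library 3, 2 without library 4, 2 without library 5, 3 without library 6, 2 at a minimum of 20 UMIs and 2 without mitochondrial UMIs. Without the PVALB group 8 of 57 were higher and 10 lower, against 12.3 and 16.6% of all genes. The 10 were light chains, dynactin subunits, DYNC1LI2 and KIF5B. Leaving the group out also removes most library 1 nuclei from the large-fibre side only. The 7 members at least 2-fold above every other group became 11 by mean CPM, 3 at resolution 0.5, 3 with each library clustered alone, 11 with UMIs split between clustering and levels and 2 without the PVALB group. For these alternatives the share over all genes was not computed, so the changes are no result about motor genes. The setting without the PVALB group and the mitochondrial one were added after the data were seen.

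Of the values past 2-fold, 7 reversed under an alternative. KIF19 stood at -0.067 (log2) when thinned, which left out 31 of 420 large-fibre and 26 of 1140 C-fibre nuclei. DCTN3 stood at -0.33 without library 1 and at -1.98 without the PVALB group. In PVALB nuclei over the next group, with libraries clustered alone, DCTN3 stood at -0.27 and DYNLT3 at -0.14. MYO1E in ADCYAP1 over IL31RA nuclei, 1.26 as reported, stood at -0.21 with UMIs so split and -0.28 by marker UMIs of each nucleus. The cause was not tested. Of the other values for single genes, pairs and shares, 619 stayed within their counting interval and 210 moved beyond it, 197 with the same sign. The 13 that changed sign were values short of 2-fold, of MYO1H (5), DYNLT3 (3), DYNLL1 (3), KIF23 (1) and MYO1D (1). The DYNC1I1 share kept its direction in all 19 alternatives (15.3 to 26.9 percentage points, 21.3 as reported), and so did the KIF5A share (0.781 to 26.2 points, 6.504 as reported, 2.81 without deep nuclei). Depth limits the NTRK2 group (120817 UMIs) and members under 100 UMIs. Intervals leave out the spread between pigs.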

Other observations

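Among the other rows known by identifier, KIF13B stood at 64.9 CPM in large-fibre and 44.0 CPM in C-fibre groups, KIF16B, a motor of early endosomes, at 115 and 154 CPM, MYO18A at 135 and 106 CPM, and DCTN1, the large dynactin subunit that binds microtubules, at 208 and 210 CPM. MYO15B had 17 UMIs in the table. MYO18A ran from 205 CPM in NTRK3 nuclei to 53.2 CPM in PVALB nuclei.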
